A study of Mus musculus with 2 samples.

Results

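The RUNX transcription factor genes *Runx1*, *Runx2* and *Runx3* and their common partner gene *Cbfb* were examined for nearby DLX2 sites, DLX2 being a homeodomain protein of the developing face. These 4 genes were taken from the 21761 protein-coding genes of the mouse RefSeq annotation, and a peak was assigned to a gene where it lay inside the gene or within 100 kb of either end. The data were CUT&Tag peaks, in which an antibody against DLX2 directs a transposase that tags the DNA around the bound protein. The 2 libraries form 1 group, maxillary process cells of wildtype C57BL/6 mouse embryos at E12.5 with no transgene or treatment named in the labels, and are numbered replicate 1 and replicate 2 by record order. The maxillary process, from which most of the upper jaw grows, holds epithelium and neural crest mesenchyme. Peak lists give no expression, so the tissue was not checked against marker genes. The sources used here do not say whether the libraries came from separate litters, and no control library was used here, so the values describe peaks and not a comparison between groups. Of all peaks, 31 of 28061 in replicate 1 and 70 of 62093 in replicate 2 fell in the windows of the 4 genes. Where a replicate 1 peak and a replicate 2 peak overlapped by 1 bp or more, the stretch they have in common is called a shared region. There were 12 shared regions in the 4 windows, of 10921 in the genome.

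RUNX proteins bind DNA through the runt domain, and each of the 3 needs CBFB, which does not itself contact DNA but raises the affinity of the complex. RUNX1 is required for blood stem cells, RUNX2 for osteoblasts and the formation of bone, and RUNX3 for certain sensory neurons and T cells. The Runx genes are each transcribed from a distal and a proximal promoter, which give proteins that differ at the amino terminus. In the face, RUNX2 is the best known member because membrane bones of the skull and jaw do not form without it.

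The sequences at the distal starts are shown first, because they are a feature that the 3 Runx genes share and distances are measured from them. In each, capitals mark 2 copies of ACCACA, the reverse complement of the RUNX core TGTGGT, set 2 bases apart. The stretches are read 5′ to 3′ on the strand of the gene from RefSeq promoters of GRCm38.p6, which cover 250 bases before to 50 bases after a start.
Runx1, chr16:92826025-92826054, minus strand: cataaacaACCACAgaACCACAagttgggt
Runx2, chr17:44814583-44814612, minus strand: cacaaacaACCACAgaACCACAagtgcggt
Runx3, chr4:135120503-135120532, plus strand: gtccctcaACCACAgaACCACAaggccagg
Counted from 1 at the start, the first capital lay at position 29 in *Runx1* and 24 in *Runx2*, and at -134 before the start in *Runx3*. The pair ACCACANNACCACA, on either strand, occurred in 7 of 32851 promoter windows, or 0.0213%. The pair was chosen after these promoters were seen, so this share is a description and tests nothing. Besides the 3 Runx genes it was found for *Gm16225*, *Gm15462*, *Olfr24* and *Gm12236*, and the first of these lies next to the distal start of *Runx3*. A single TGTGGT on either strand occurred in 16.8% of all promoter windows and in 3 of the 6 windows of the 4 genes, the same distal starts. The pair itself contains this core, so its presence in those 3 windows follows from the pair. The homeodomain core TAATTA occurred in 5.29% of all windows and in 0 of these 6. The letters alone were counted, and they do not say whether a protein was bound.

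Peaks were unevenly spread over the 4 genes. *Runx1* had the most in both libraries, with 16 peaks in replicate 1 and 27 in replicate 2. *Runx2* had 6 and 23 peaks, *Runx3* had 3 and 15, and *Cbfb* had 6 and 5, replicate 1 first in each case. The means were 21.5 ± 7.78 for *Runx1*, 14.5 ± 12.0 for *Runx2*, 9 ± 8.49 for *Runx3* and 5.5 ± 0.707 for *Cbfb* (SD, n = 2). The place of *Runx1* at the top held in each library, whereas the order of the other 3 did not, since *Cbfb* equalled *Runx2* in replicate 1 and was last in replicate 2. Replicate 2, the library with the higher background and the longer list, had 2.26 times as many peaks in the windows as replicate 1, against 2.21 times over the whole lists. The ratio was 1.69 for *Runx1*, 3.83 for *Runx2*, 5 for *Runx3* and 0.833 for *Cbfb*.

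A shared region was found for 3 of the 4 genes. Among all protein-coding genes, 60.3% had a shared region in or within 100 kb, so having one did not set the family apart. *Runx1* had 9 of the 12 shared regions, *Runx2* had 2, *Cbfb* had 1 and *Runx3* had 0. Single libraries gave a peak for all 4 genes, against 83.1% of protein-coding genes in replicate 1 and 91.7% in replicate 2. The windows differ in length, from 247 kb for *Cbfb* and 257 kb for *Runx3* to 425 kb for *Runx1* and 519 kb for *Runx2*, so the longest window was not the one with the most shared regions.

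**Figure D1:**
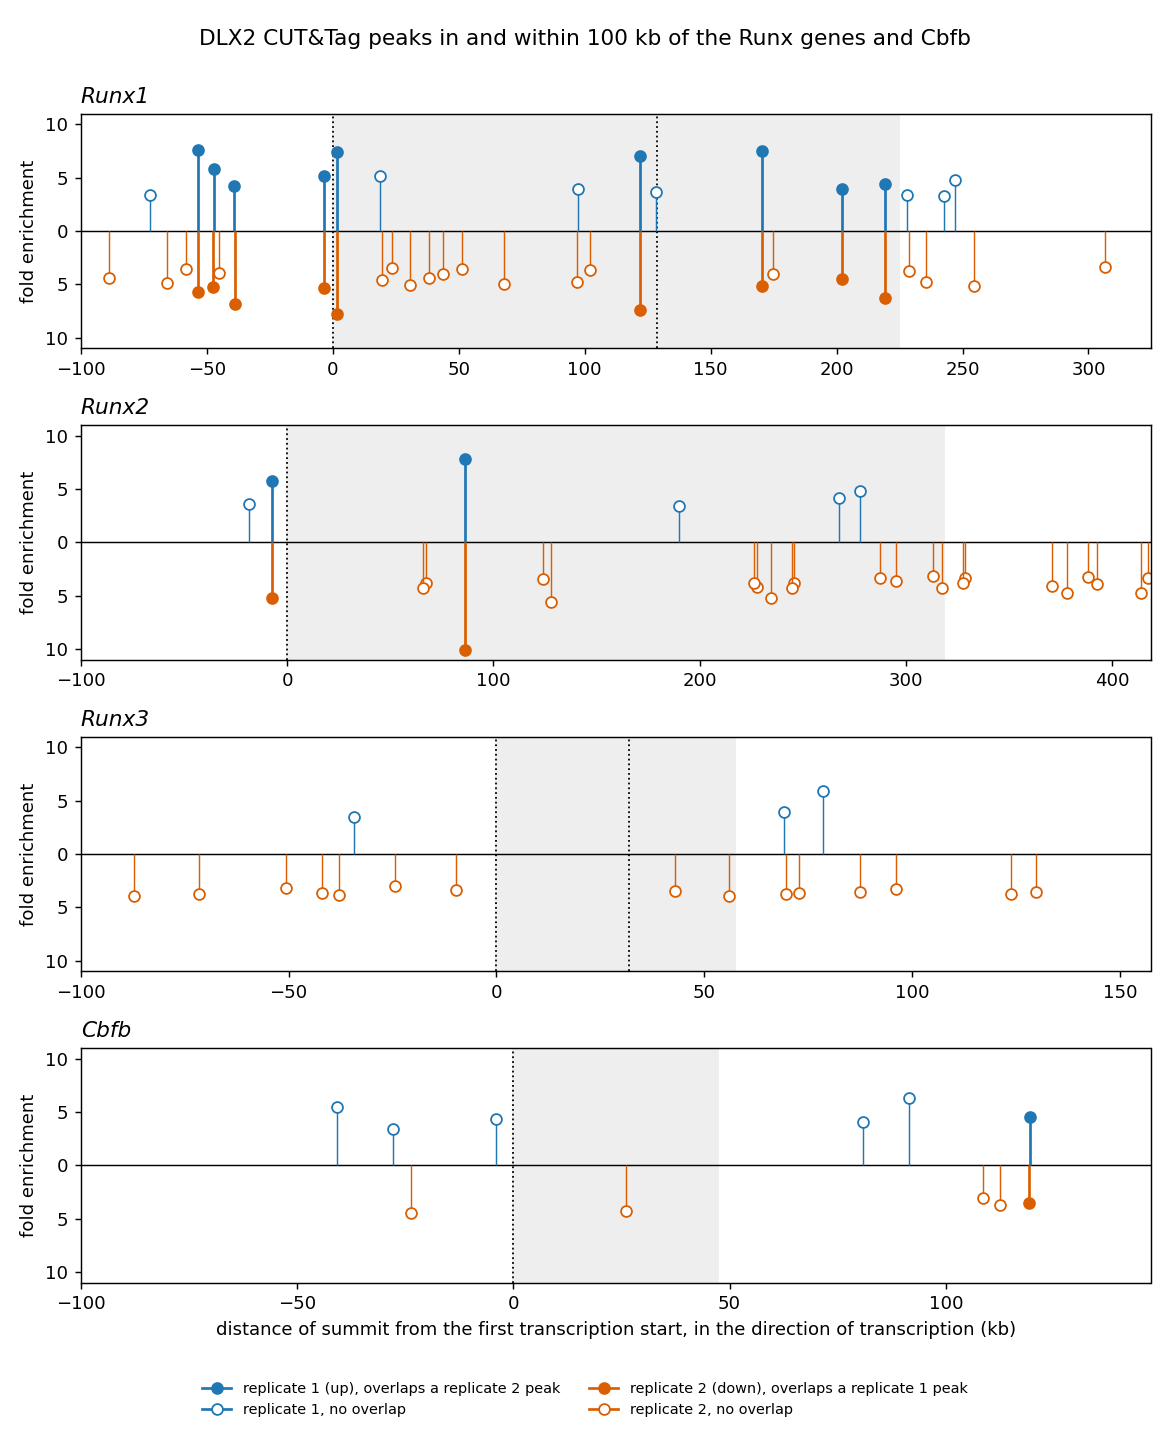
Peaks in the windows of *Runx1*, *Runx2*, *Runx3* and *Cbfb*, with the distance of each summit from the first transcription start in kb on the horizontal axis and the fold enrichment on the vertical axis, replicate 1 upward and replicate 2 downward. Grey marks the gene, dotted lines mark listed starts, and filled points overlap a peak of the other replicate; the 9 filled pairs of *Runx1* lie on both sides of its first start, and *Runx3* has none.

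*Runx1* (gene 12394) lies on the minus strand of chromosome 16 at 92601466 to 92826074 in mm10, with listed starts at 92826074 and 92697329, 129 kb apart. Its 9 shared regions spread over 273 kb, from 92606883 to 92879560. Of these, 4 lay upstream of the gene, 2 between the starts and 3 beyond the second start. The nearest protein-coding gene was *Runx1* for all 9. The next protein-coding gene upstream, *Setd4*, is 757 kb away, and *Clic6* lies 60.2 kb downstream.

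The shared region closest to a start of *Runx1* lay 1.88 kb inside the gene from the distal start, on chromosome 16 at 92824036 to 92824347. Fold enrichment, by which the peak caller compares a summit with its surroundings in 1 library, was 7.40 in replicate 1 and 7.79 in replicate 2. It had the highest lower fold of the 9, where the lower fold is that of the replicate in which the region was weaker, and 4.64% of all shared regions had a lower fold as high. The summits were 16 bp apart. The fragments at its summit, worked out from fold and p, numbered 12 in replicate 1 and 25 in replicate 2, the most for any peak in the 4 windows in replicate 2. The other region between the starts, at 92703872 to 92704109, lay 6.29 kb from the promoter window of the second start. Its fold was 7.04 in replicate 1 and 7.43 in replicate 2, with summits 8 bp apart. The folds of these 2 regions were thus close between the libraries. Fragments were not, with 9 in replicate 1 and 16 in replicate 2 at the second region. Background, replicate 1 first, was 0.756 and 2.34 fragments at the first region and 0.421 and 1.29 at the second. Close folds therefore do not mean an equal ratio of fragments to background.

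Upstream of *Runx1*, the first shared region lay 3.36 kb from the gene, at 92829437 to 92829722. It was weaker than its neighbour inside the gene, with folds of 5.12 and 5.38. The other 3 upstream regions formed a group between 38.6 and 53.3 kb from the gene, where no other protein-coding gene is annotated. The region at 92864691 to 92865123 had folds of 4.24 and 6.82, the value of replicate 1 first. The region at 92873074 to 92873556, 483 bp long, had folds of 5.80 and 5.24, and that at 92879370 to 92879560 had folds of 7.60 and 5.75. Which of the 3 was strongest therefore depended on the library: the farthest in replicate 1, the nearest in replicate 2.

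Beyond the second start, 3 shared regions lay toward the end of *Runx1*. The one at 92655311 to 92655755 had a fold of 7.51 in replicate 1 but 5.16 in replicate 2, with summits 223 bp apart. The one at 92623670 to 92623848 was the weakest of the gene in both libraries, with folds of 3.89 and 4.49. The last, at 92606883 to 92607023, had folds of 4.36 and 6.26. Over the 9 regions, fold ranged from 3.89 to 7.60 in replicate 1 and from 4.49 to 7.79 in replicate 2. Each region rested on 5 to 12 fragments in replicate 1 and 10 to 25 in replicate 2, so a difference of a few fragments can change its rank.

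Shared regions of *Runx1* were longer than most: 8 of the 9 exceeded the median of 151 bp of all shared regions, and their own median was 286 bp. Their lower fold exceeded the genome median of 4.51 in 6 of 9. A fold of at least 5 in both libraries was seen in 6 of the 9, against 35.1% of all shared regions. With peaks restricted to a −log10 q of at least 5, where q is the peak caller's false discovery rate, 3 remained at *Runx1*, namely those at 92703872, 92824036 and 92879370. Under that limit 14.9% of protein-coding genes had a shared region within 100 kb.

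*Runx1* also held peaks of replicate 1 that replicate 2 did not overlap, 7 of its 16. In 2 of these a replicate 2 peak lay close by, 72 bp and 132 bp away. One of the 7 covered part of the promoter window of the second start, at 92697502 to 92697646, with a fold of 3.60 and 4 fragments. It was the only peak of either replicate to touch any of the 6 promoter windows of the 4 genes. The nearest peak of replicate 2 was 6225 bp from it. The 250 bases before that start are printed here with the 78 bases under the replicate 1 peak in capitals.
Runx1 second start, chr16:92697330-92697579, minus strand: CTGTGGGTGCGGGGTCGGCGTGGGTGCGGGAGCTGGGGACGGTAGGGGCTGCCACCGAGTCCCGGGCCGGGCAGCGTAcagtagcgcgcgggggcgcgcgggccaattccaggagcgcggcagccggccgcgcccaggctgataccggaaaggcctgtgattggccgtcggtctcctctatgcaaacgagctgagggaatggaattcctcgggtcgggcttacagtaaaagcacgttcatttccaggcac
The stretch was 67.6% G or C with 27 CG dinucleotides, and its part under the peak was 76.9% G or C with 9. Of 21248 promoter windows of protein-coding genes, 0.838% met a replicate 1 peak, 2.90% a replicate 2 peak and 0.165% a shared region. Few promoter windows thus met a peak over all genes as well. These are shares of short windows and not of peaks, so they do not say whether peaks favour or avoid promoters.

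*Runx2* (gene 12393) lies on the minus strand of chromosome 17 at 44495987 to 44814797, and the promoter table lists 1 start for it, at 44814627. Its stronger shared region, 557 bp long from 44727876, lay inside the gene 86.5 kb from that start. No proximal start is listed for *Runx2*, so the distance of this region from the proximal promoter was not measured. Fold and length are therefore given without that placement. Fold was 7.78 in replicate 1 and 10.04 in replicate 2, on 11 and 23 fragments, the highest fold of any window peak in each library. Of all shared regions, 3.42% had a lower fold as high and 1.19% were as long. With −log10 q limited to 5 or more, it was the only region of *Runx2* left. The weaker one lay 7.27 kb upstream of *Runx2* at 44822069 to 44822147, within *Supt3*, which encodes a subunit of a histone acetyltransferase complex and overlaps *Runx2* here. Its folds were 5.77 and 5.24, and its 7 and 10 fragments stood on the lowest background of each list. The annotation gives *Supt3* as the gene that holds it.

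Most *Runx2* peaks were seen in 1 library. Of the 6 in replicate 1, 4 met no replicate 2 peak, and their nearest replicate 2 peak was between 9326 and 36091 bp away. Of the 23 in replicate 2, 21 met no replicate 1 peak, with folds up to 5.61. The peaks of replicate 2 ran on past the end of the gene, with 8 in the 100 kb downstream, where replicate 1 had 0. The 2 shared regions thus stood among peaks that were not repeated.

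*Runx3* (gene 12399) lies on the plus strand of chromosome 4 at 135120645 to 135177990, with starts at 135120645 and 135152545. It had no shared region. The 15 peaks of replicate 2 were weak, with folds from 3.03 to 3.91 and 6 to 12 fragments, and 2 of them lay in the gene. Replicate 1 had 3 peaks, 1 upstream and 2 downstream, with folds of 3.46, 3.89 and 5.86. The middle one came within 107 bp of a replicate 2 peak without overlap. The strongest, at 135199205 to 135199330, had its nearest replicate 2 peak 5610 bp away. The count of 0 rests on few fragments, and the share of *Runx3* peaks met by the other library, 0 of 3 and 0 of 15, had Wilson upper limits of 56.1% and 20.4%.

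*Cbfb* (gene 12400) lies on the plus strand of chromosome 8 at 105170674 to 105217989, in a dense neighbourhood with 13 other protein-coding genes in its window. Its single shared region, at 105289974 to 105290087, lay 72.0 kb downstream within *Exoc3l*, so that *Cbfb* was not its nearest gene. Fold was 4.56 in replicate 1 and 3.56 in replicate 2, the lowest of the 12 in replicate 2, and 88.9% of all shared regions had a lower fold as high. No replicate 1 peak and 1 replicate 2 peak lay in the body of *Cbfb*, the latter at 105196680 to 105196854 with a fold of 4.28. The strongest peak of the window, with a fold of 6.29 in replicate 1 at 105262107 to 105262197, was not met by replicate 2.

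No shared region lay at the edge of a window. The farthest region inside lay 53.3 kb from *Runx1*, 7.27 kb from *Runx2* and 72.0 kb from *Cbfb*, and the nearest outside lay 129 kb, 156 kb and 130 kb away. For *Runx3* the nearest shared region lay 168 kb upstream at 134952391 to 134952675, with folds of 6.94 and 7.99. A window of 250 kb on each side gave *Runx1* 13 regions, *Runx2* 4, *Runx3* 3 and *Cbfb* 3, and 79.4% of protein-coding genes at least 1.

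Peaks that recurred had the higher median fold in both libraries. In replicate 1 the 12 window peaks met by replicate 2 had a median fold of 5.78 and 7.5 fragments, against 3.97 and 5 fragments for the 19 not met. In replicate 2 the 12 met had a median fold of 5.56 and 14 fragments, against 3.82 and 9 for the 58 not met. The ranges overlapped in each library. Of the replicate 1 window peaks 38.7% were met (95% Wilson interval 23.7 to 56.2%), against 38.9% of the whole list. Of the replicate 2 window peaks 17.1% were met (interval 10.1 to 27.6%), against 17.2%. The share over the 4 windows was thus near that of each list. For *Runx1* alone it was 56.3% in replicate 1 (interval 33.2 to 76.9%) and 33.3% in replicate 2 (interval 18.6 to 52.2%). *Runx1* was singled out for its counts after they were seen, so this is a description. These intervals cover counting error only.

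**Figure D2:**
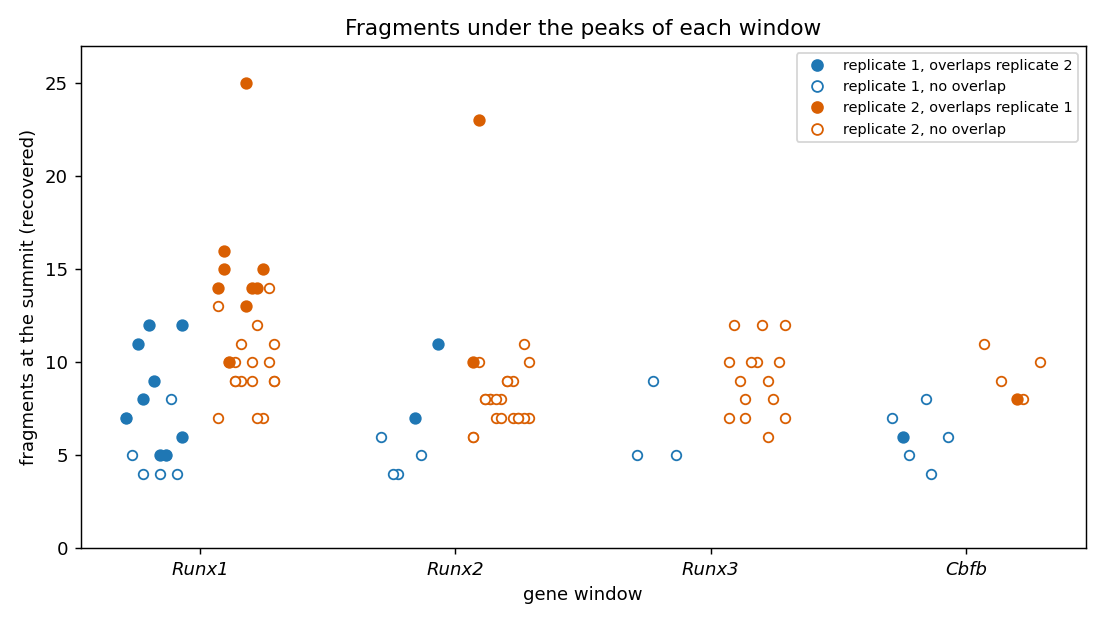
Fragments at the summit, recovered from fold and p, for each peak in the windows of the 4 genes, with replicate 1 in blue, replicate 2 in orange and filled points for peaks that overlap one of the other replicate. The 2 highest points, at 25 and 23 fragments, are replicate 2 peaks of shared regions in *Runx1* and *Runx2*, and the open points of replicate 1 lie between 4 and 9.

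Between the libraries, 7 of the 12 shared regions had the higher fold in replicate 2, and over the genome 49.6% did. The median fold of the 12 was 5.78 in replicate 1 and 5.56 in replicate 2, against 5.05 and 5.12 for all shared regions. Summits were within 100 bp of each other in 8 of the 12 and in 67.7% of all shared regions. The *Runx2* region inside the gene stood toward the upper end of the shared set and the *Cbfb* region toward its lower end.

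**Figure D3:**
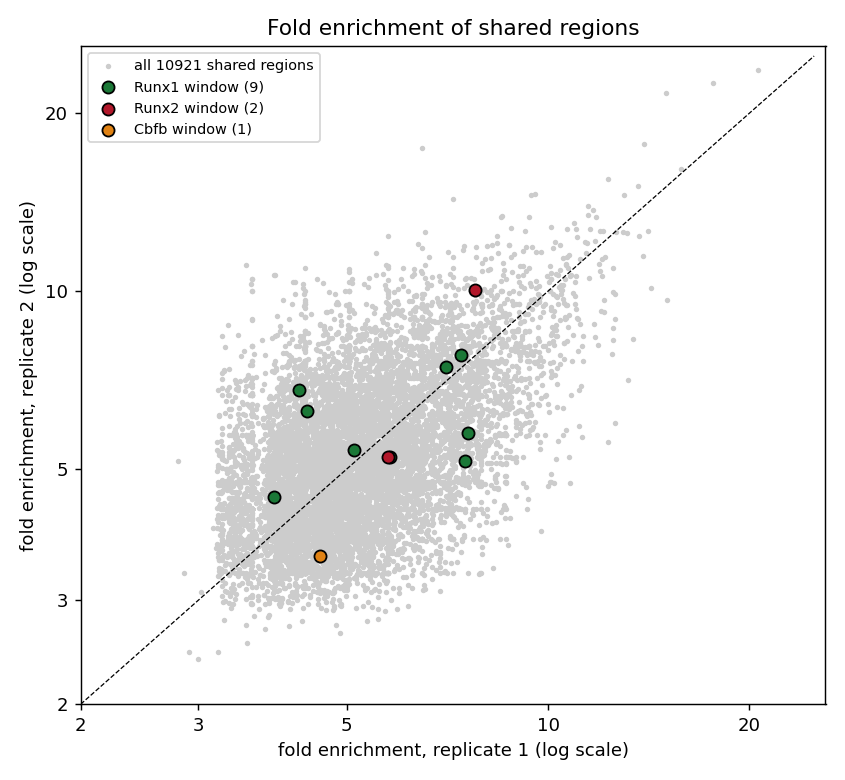
Fold enrichment in replicate 1 (horizontal) and replicate 2 (vertical), both on log scales, for all 10921 shared regions in grey and the 12 regions of the *Runx1*, *Runx2* and *Cbfb* windows in colour, with the dashed line at equal fold. The strongest coloured point is the *Runx2* region at 7.78 and 10.04, and the *Cbfb* region at 4.56 and 3.56 is the lowest in replicate 2 only, since 3 *Runx1* regions are lower in replicate 1.

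Set against every protein-coding gene, *Runx1* stood near the top of the range in its number of shared regions and the other 3 did not. For a gene window the median number of shared regions was 1, and 0.519% of protein-coding genes had 9 or more. As a density, *Runx1* had 2.12 shared regions per 100 kb of window against a median of 0.441, and 2.91% of genes were as dense. *Runx2* had 0.385 per 100 kb and *Cbfb* 0.404, each slightly under that median. The single libraries separated *Runx1* less: it had 3.77 peaks per 100 kb in replicate 1 (5.19% of genes as dense) and 6.36 in replicate 2 (16.4% as dense). By number of peaks in replicate 2, *Runx2* also stood high, since 2.63% of protein-coding genes had 23 or more, whereas 24.3% had as many as its 6 in replicate 1. *Runx3*, with no shared region, had 5.83 peaks per 100 kb in replicate 2, above the median of 3.38 over all protein-coding genes, but 1.17 in replicate 1, below the median of 1.37. *Runx1* is also a long gene, and 3.87% of protein-coding genes are as long. Neighbouring genes share windows, so these shares describe the position of a gene in the list.

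**Figure D4:**
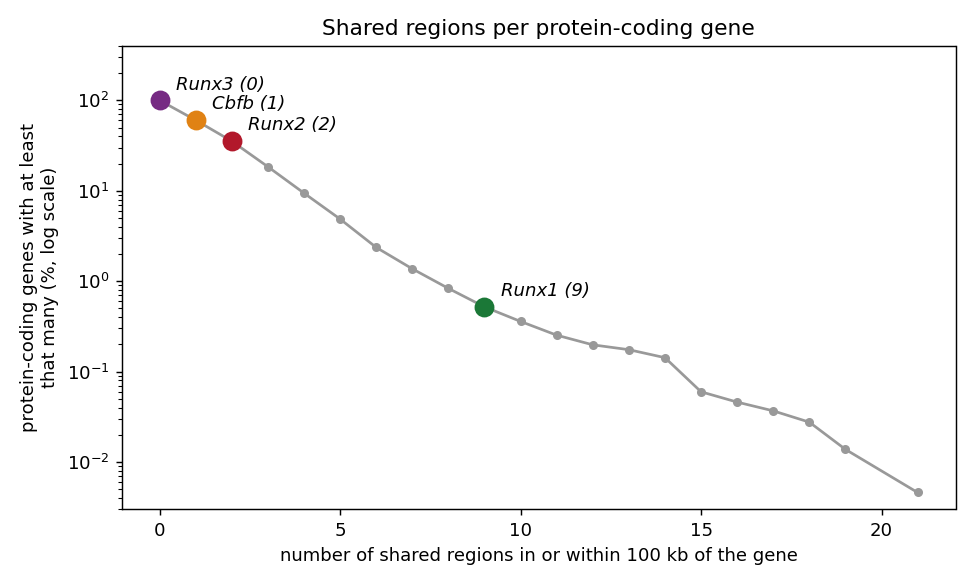
Share of protein-coding genes (percent, log scale) with at least a given number of shared regions in or within 100 kb, with the 4 genes marked. *Runx1* lies at 9 regions, reached by 0.519% of genes, and *Runx2*, *Cbfb* and *Runx3* lie at 2, 1 and 0.

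Genes listed as partners, regulators or targets of RUNX proteins were counted the same way, from a list of 34 that held 20 partners and regulators and 14 targets. A shared region was present for 29 of the 34, or 85.3% (Wilson interval 69.9 to 93.6%), beside 60.3% of all protein-coding genes. Their median number of regions was 2, against 1 for all. The 29 genes are not independent, since the 60 links between a gene and a region came from 55 regions and several listed genes are neighbours. The list was also chosen with earlier results of these data known, so the interval does not test the difference. The share also depends on how far the window reaches: with 50 kb on each side 19 of the 34 had a shared region, or 55.9% beside 44.7% of protein-coding genes, and in the gene body 5 did, or 14.7% beside 14.6%. With −log10 q limited to 5 or more, 4 of the 34 had one, or 11.8%, which is under the 14.9% of all protein-coding genes. With fold limited to 5 or more it was 12, or 35.3% beside 28.6%. With −log10 p limited to 7 or more it was 14, or 41.2% beside 28.6%.

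Among the partners, 15 of 20 had a shared region, or 75% (interval 53.1 to 88.8%), beside 60.3% of all protein-coding genes. Their median of 1 region equals that of all. With fold limited to 5 or more 4 of the 20 had one, or 20% beside 28.6%. Some regions were counted for more than 1 partner, so the interval does not test a difference. *Sp7*, which encodes the osteoblast factor osterix, had 4, and the strongest lay 0.463 kb from the gene with folds of 7.87 and 4.77. Osterix acts downstream of RUNX2 but was listed with the partners, so the split between partners and targets is not strict. *Hdac4*, a histone deacetylase that restrains RUNX2, had 3, the strongest 40.8 kb from the gene with folds of 4.51 and 4.88. That region lay 39.7 kb from *Twist2*, another listed gene, and was counted for both. *Supt3*, which overlaps *Runx2*, had 2, which are the 2 regions of the *Runx2* window. Its count is therefore not separate from that of *Runx2*. The 5 listed genes without a shared region were *Runx1t1*, *Ep300*, *Kat6a*, *Wwtr1* and *Twist1*, all of them partners or regulators. *Twist1*, a repressor of RUNX2 activity, had 0 replicate 1 peaks and 2 replicate 2 peaks.

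All 14 targets on the list had at least 1 shared region within 100 kb (interval 78.5 to 100%), beside 60.3% of protein-coding genes. The neighbours *Bglap* and *Bglap2* were counted separately though they have the same strongest region. For this reason, and because the list was chosen with earlier results known, the interval does not test the difference. The difference depended on the setting. In the gene body 2 of the 14 did, beside 14.6%, and with −log10 q limited to 5 or more 1 did, beside 14.9%. With fold limited to 5 or more 8 did, beside 28.6%, and with −log10 p limited to 7 or more 9 did, beside 28.6%. Where 50% of each peak had to be shared 11 did, beside 44.9%, and with 50 kb on each side 9 did, beside 44.7%. *Ibsp*, the gene of bone sialoprotein, had 4, the strongest 19.5 kb from the gene with folds of 8.40 and 7.33. *Alpl*, the alkaline phosphatase of mineralizing cells, had 4, the strongest 61.6 kb from the gene with folds of 6.48 and 4.66. *Vegfa*, which encodes an angiogenic factor, had 4 and *Ihh*, a hedgehog ligand of cartilage, had 3, with lower folds of 4.39 and 4.76 at the strongest. These strongest regions lay 45.1 kb from *Vegfa* and 90.3 kb from *Ihh*. *Bglap*, the gene of osteocalcin, had 2, the strongest 58.4 kb away with folds of 5.33 and 6.61. Of the genes known from blood cells, *Gata3*, a T cell regulator, had 4, the strongest 81.2 kb from the gene with folds of 5.34 and 7.24. *Spi1*, a myeloid regulator, had 2, of which the stronger lay in the gene with folds of 5.67 and 7.98.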

How the data were processed

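The authors deposited 1 narrowPeak list per replicate on mm10 (GRCm38), not pooled. These lists, of 28061 and 62093 peaks, reach down to a −log10 q of 1.00 in each replicate. The study reported fewer peaks for each replicate and fewer in common, so the lists used here are not its peak set. All counts here, including the share of protein-coding genes with a shared region, rest on these longer lists. The submitters' processing notes name Trim Galore 0.4.5, Bowtie 1.1.2 and MACS2 2.2.7, whereas the methods of the study name another release of Trim Galore and bowtie2; the settings of the peak caller are not given in the sources used here. The labels describe sonication and precipitation, the methods transposase tagging. The deposited fold enrichment compares signal at the summit with local background, and its values matched a ratio with 1 fragment added to each side. At these low counts it is therefore under the plain ratio, and folds of libraries with unlike background are not directly comparable. The deposited score is the whole part of 10 times the −log10 q. The deposited −log10 p and −log10 q are those of the peak caller.

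Peaks were overlapped by at least 1 bp and assigned to RefSeq gene extents of GRCm38.p6 with 100 kb on each side; genes listed before position 3000000 were left out, and exons were not used here. Starts, strands and sequences came from RefSeq promoter windows. Sequence under peaks outside these windows was not analysed here. Depth is not in the lists. Fragments at the summit were recovered by taking fold as fragments plus 1 over background plus 1 and p as a Poisson upper tail, and a whole number was found for 100% of the peaks within 0.001 of the −log10 p. The lowest background was 0.387 fragments in replicate 1 and 1.10 in replicate 2. With 1 group, no test between groups was made. Overlap, window counts and recovery were tested on simulated data.

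The 4 genes, the list of 34 genes and the tests were chosen with earlier results of these data known, and the pair of RUNX cores was chosen after the promoters were seen. Named genes were the 4 members, genes that hold or lie nearest to their shared regions, and up to 10 listed genes by number of shared regions and then by lower fold; listed genes with a count of 0, and neighbours, were named besides. Alternatives were limits on q, p and fold, stricter overlaps, other windows, the nearest gene and single replicates. The work used scipy 1.17.1, pandas 2.3.3, numpy 2.4.6 and matplotlib 3.10.9 under Python 3.11.15.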

Additional observations from a re-analysis of the deposited data

How the results depend on the processing

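Of 116 alternative values, 59 stayed within 1.5 times the main count or within the interval of the main share. This rule is wide for small counts, since it takes in a fall from 3 to 2 members with a shared region. That fall was seen with the limits on q, p and fold, with 50 kb, in gene bodies, with 50% of each peak shared and by the nearest gene. With −log10 q limited to 5 or more, the windows held 5 and 8 peaks, of which 80% in replicate 1 and 50% in replicate 2 were met, 4 shared regions (*Runx1* 3, *Runx2* 1, *Cbfb* 0), 4 listed genes and 3236 coding genes with one. At a −log10 p of at least 7 these were 10 and 17 peaks, 70% and 41.2% met, 7 shared regions (*Runx1* 5, *Cbfb* 0), 14 listed genes and 6226 coding genes. With fold limited to 5 or more, they held 12 and 15 peaks, 66.7% and 53.3% met, *Cbfb* 0, 12 listed genes and 6223 coding genes. Counts fall by construction; why the shares rose was not tested. With 250 kb on each side there were 58 and 133 peaks and 23 shared regions (*Runx2* 4, *Runx3* 3, *Cbfb* 3); with 50 kb, 19 listed genes and *Cbfb* 0. In gene bodies there were 12 and 32 peaks, 6 shared regions (*Runx1* 5, *Runx2* 1, *Cbfb* 0), 5 listed genes and 3182 coding genes. *Cbfb* had 0 where 50% of each peak had to be shared, and by the nearest coding gene *Cbfb* had 0 and *Runx2* 1. Counting peaks no more than 250 bp apart, chosen after seeing the data, gave *Runx3* 1 and *Runx1* 11. *Runx1* had the most regions under each of these settings.

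A single replicate gave 31 to 70 regions in the 4 windows (*Runx1* 16 to 27, *Runx2* 6 to 23, *Runx3* 3 to 15, *Cbfb* 5 to 6), all 4 members, 33 to 34 listed genes and 18085 to 19964 coding genes. No paired analysis was possible because the samples form 1 group. Most window peaks rest on few fragments, and without a control library no alternative separates DLX2 sites from background common to both libraries.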

Other observations

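Promoters that met a shared region were looked at for the RUNX and DLX cores, as values only. Of the 35 promoter windows of protein-coding genes that a shared region overlapped, 7 held TGTGGT on either strand, or 20% (95% Wilson interval 10.04 to 35.9%), against 14.9% of the 21213 others (interval 14.5 to 15.4%). None of the 35 held TAATTA (upper limit 9.89%), against 4.54% of the others. The median G and C content was 62.7% in the 35 and 56.3% in the rest, and its part in these shares was not tested. None of the 35 belonged to *Runx1*, *Runx2*, *Runx3* or *Cbfb*.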
